A study of Mus musculus with 24 samples.

Results

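Inguinal subcutaneous fat of NZO/HiLtJ mice, a strain known for obesity and diabetes, was compared with that of CAST/EiJ mice, an inbred strain derived from wild Mus musculus castaneus and known for leanness, with both strains on the standard diet. The comparison held 6 RNA-seq libraries, 3 per strain, taken by their strain and diet labels from a series of 24 libraries (4 strains, 2 diets, 3 mice per group). Each library came from 1 female mouse killed at 26 weeks of age. The standard diet supplied 17% of its energy as fat. NZO/HiLtJ and CAST/EiJ mice fed a diet rich in fat (45% of its energy) and sucrose, 3 of each strain, here called the high-fat diet, served as a second reading of the strain difference in other animals. C57BL/6J and WSB/EiJ mice on the standard diet, again 3 each, entered the fit and are cited for context. Diets began at 4 weeks of age. The labels give no transgene or induced mutation, and each strain is 1 inbred genotype, so that the comparison is between 2 genotypes.

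Fat tissue stores triglyceride in adipocytes, which also secrete hormones such as leptin and adiponectin. Inguinal fat of mice can form beige adipocytes, which carry Ucp1 and burn fuel for heat. The same tissue holds preadipocytes, blood vessels and immune cells, and macrophages accumulate in it in obesity.

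Levels are given as CPM (counts per 1000000 counts of the library, with totals adjusted by trimmed-mean scaling), in the order of replicates 1, 2 and 3, with the 3 NZO/HiLtJ libraries first and the 3 CAST/EiJ libraries after the word against. Log2 fold changes are NZO/HiLtJ minus CAST/EiJ with their standard error, so a positive value is a higher level in NZO/HiLtJ. Adjusted p-values come from edgeR's quasi-likelihood test with Benjamini-Hochberg adjustment over all genes tested, and a gene was called at an adjusted p below 0.05. A strict call required a difference significantly beyond 1 on the log2 scale by edgeR's glmTreat test.

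The 6 libraries held 61750533 to 84009032 counts. Summed markers of adipocytes lay at 16192 to 16529 CPM of the unscaled total in NZO/HiLtJ and at 20128 to 21973 CPM in CAST/EiJ, and in both strains they were the most abundant of the 20 marker lists. Most of the gap between the strains came from 1 marker, adipsin (Cfd), which was 6.77-fold higher in CAST/EiJ. Transcripts of other tissues were present in some libraries. In replicate 2 of the CAST/EiJ group the 15 skeletal muscle markers summed to 6119 CPM, against 82.8 and 47.6 CPM in the other CAST/EiJ libraries and 84.3 to 93.4 CPM in NZO/HiLtJ. Of these markers 14 were called lower in NZO/HiLtJ, where 26.8% of all genes were. Without CAST/EiJ replicate 2, 2 were called lower and 2 higher, and the list median moved from -7.25 to -1.10. Albumin (Alb), a liver product, stood at 489, 881 and 76 against 36.8, 510 and 135 CPM and was not called. With all libraries of the fit, 0 of the 12 liver markers were called higher in NZO/HiLtJ and 1, Cyp2e1, lower. Once CAST/EiJ replicate 2 was left out, 9 were called higher. The sums of the 12 markers were lower in NZO/HiLtJ, at 1320, 2081 and 592 against 5512, 4491 and 4404 CPM. Mammary epithelium markers summed to 7.28 to 23.5 CPM, and 3 to 6 of the 15 were at 0 counts. Fewer cells of a type and less RNA per cell cannot be told apart in such bulk libraries.

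**Figure D1:**
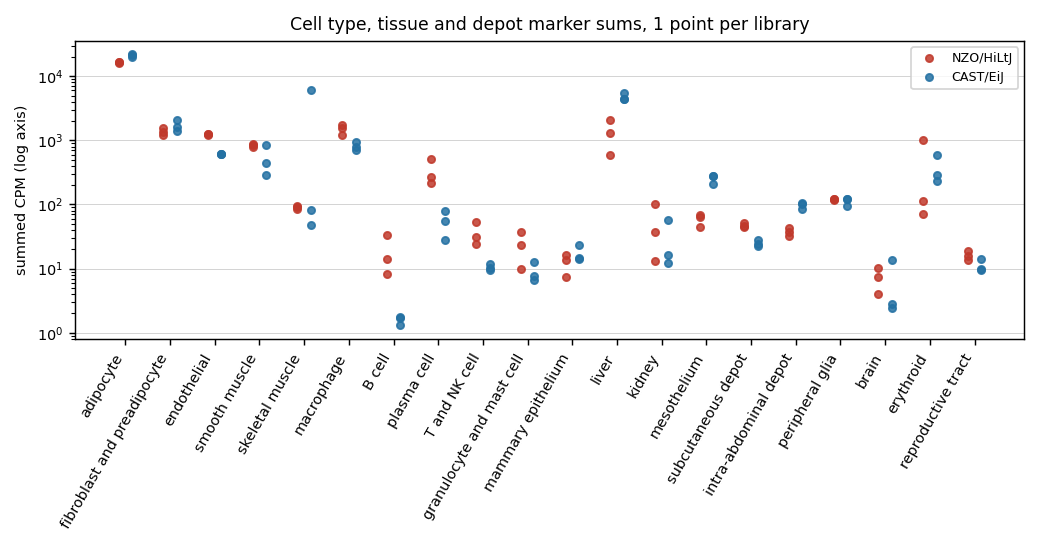
Summed CPM over the unscaled library total of 20 marker lists (log axis), 1 point for each of the 3 NZO/HiLtJ (red) and 3 CAST/EiJ (blue) standard-diet libraries. Macrophage, lymphocyte and endothelial sums are higher in NZO/HiLtJ, mesothelial sums are higher in CAST/EiJ, and CAST/EiJ replicate 2 stands apart in skeletal muscle markers at 6119 CPM.

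The 2 strains differed over most of the transcriptome. Of 19038 genes tested, 5702 (30%) were called higher and 5111 (26.8%) lower in NZO/HiLtJ, which is 56.8% in either direction, and the 3 and 3 libraries did not overlap for 64.4% of genes. The strict call was passed by 1665 genes higher (8.75%) and 1144 lower (6.01%) in NZO/HiLtJ. The median log2 fold change over all genes was 0.02. Since more than 1 gene in 2 was called, a count of calls in a gene group has to be read beside these shares. With all 24 libraries in the fit 3783 genes were higher and 3259 lower, and without CAST/EiJ replicate 2 the counts were 5432 and 5076.

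Among 32 lists of pathway genes, those with the largest share of measured members higher in NZO/HiLtJ were MHC class II (10 of 10 measured), cell division (24 of 26), MHC class I (16 of 18), chemokines and cytokines (21 of 26), collagens (13 of 17), fat mass expansion (3 of 4), the interferon response (19 of 27) and lipid-associated macrophages (9 of 13). Those with the largest share lower were oxidative phosphorylation (44 of 49), fatty acid oxidation (17 of 23), breakdown of branched-chain amino acids (15 of 22), brown and beige adipocytes (9 of 15) and the circadian clock (11 of 19). The median log2 fold change ran from -1.11 for fatty acid synthesis and desaturation to 3.26 for MHC class II.

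**Figure D2:**
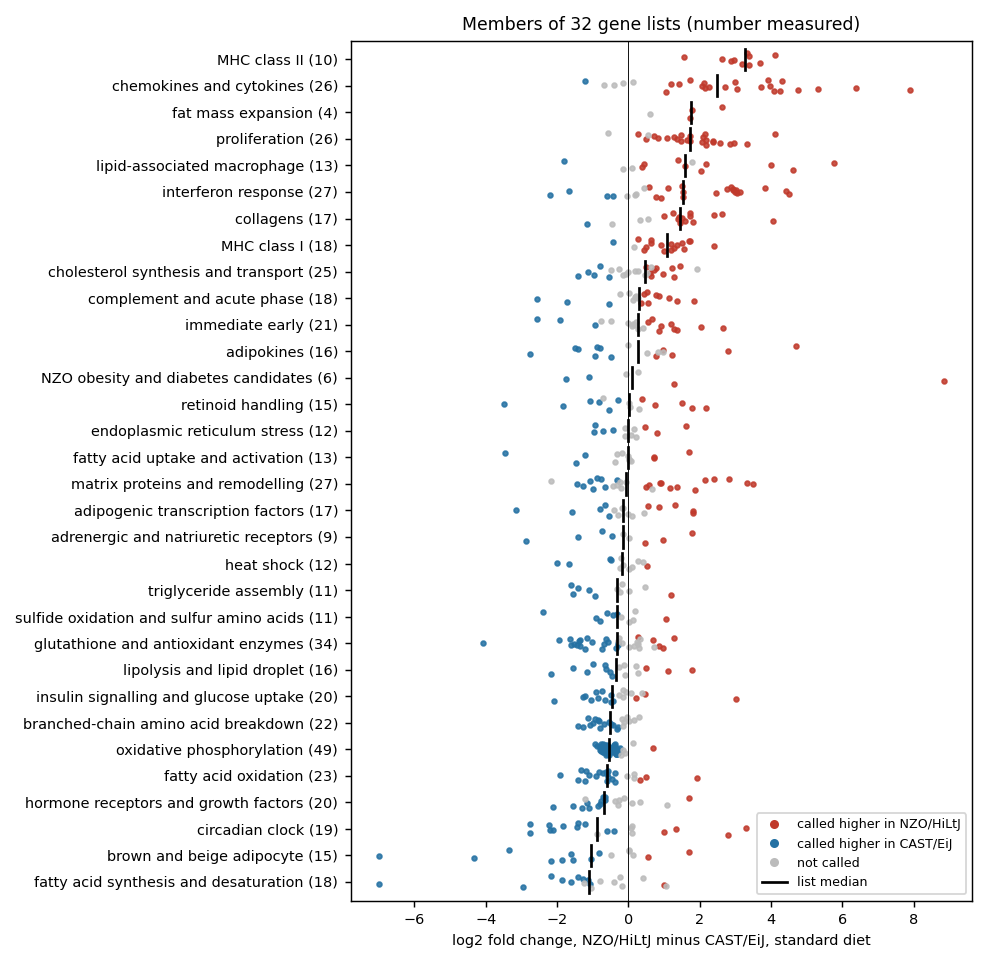
Log2 fold change, NZO/HiLtJ minus CAST/EiJ on the standard diet, of each measured member (points) of 32 pathway lists, with the list median as a black bar and the number measured in brackets. Red points were called higher in NZO/HiLtJ, blue points higher in CAST/EiJ and grey points were not called; immune lists lie at the top and lipid synthesis, thermogenic and clock lists at the bottom.

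Adipocyte hormones split between the strains. Leptin (Lep), the hormone that reports fat mass to the brain, was at 1384, 1494 and 1228 against 61.1, 288 and 248 CPM. Every NZO/HiLtJ library was above every CAST/EiJ library, and CAST/EiJ replicate 1 was the lowest. The log2 fold change was 2.79 ± 0.51 (6.92-fold, adjusted p = 0.000773). Adipsin (Cfd), the complement factor D that adipocytes secrete, went the other way at 752, 876 and 1046 against 7208, 5076 and 5982 CPM. Its log2 fold change was -2.76 ± 0.31 (adjusted p = 2.74e-05), a 6.77-fold higher level in CAST/EiJ. Adiponectin (Adipoq), an insulin-sensitising hormone, was at 1674, 1695 and 1949 against 2488, 2410 and 2614 CPM, a smaller difference of -0.49 ± 0.13 (adjusted p = 0.00902). Retnla, made mainly by alternatively activated macrophages and adipose stroma, was at 124, 77.5 and 86.7 against 3.07, 5.21 and 2.82 CPM, 26-fold higher in NZO/HiLtJ (4.70 ± 0.35, adjusted p = 1.34e-06).

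Of the 16 adipokine genes measured, 5 were higher and 7 lower in NZO/HiLtJ, with a median of 0.26. The heat-linked growth factor Nrg4 (-1.49 ± 0.30), the NAD-synthesis enzyme Nampt (-1.42 ± 0.15), resistin (Retn, -0.87 ± 0.16), the retinol carrier Rbp4 (-0.81 ± 0.18) and angiotensinogen (Agt, -0.95 ± 0.17) were lower. The lipase inhibitor Angptl4 (0.76 ± 0.18) and meteorin-like (Metrnl, 0.96 ± 0.10) were higher. Of the adipocyte hormones Lep, Cfd, Retn and Adipoq, Lep was higher in NZO/HiLtJ and the other 3 were lower.

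Sfrp5, Mest, Bmp3 and Npr3 are known to go with the expansion of fat mass, and CAST/EiJ replicate 1 was the lowest library for each of these 4 genes. Sfrp5, a secreted Wnt inhibitor, was at 40.6, 45.2 and 57.7 against 0.494, 14.6 and 8.2 CPM and called higher in NZO/HiLtJ (2.62 ± 0.89, adjusted p = 0.0268). The call was lost without NZO/HiLtJ replicate 3 (adjusted p = 0.0617) or CAST/EiJ replicate 3 (adjusted p = 0.0687). The imprinted gene Mest was at 428, 524 and 446 against 32.5, 478 and 411 CPM, so that CAST/EiJ replicate 2 lay within the NZO/HiLtJ range, and the gene was not called (0.61 ± 0.76, adjusted p = 0.523). Bmp3, a bone morphogenetic protein, was higher in NZO/HiLtJ at 28.3, 38.2 and 36.7 against 7.39, 11 and 12.6 CPM (1.74 ± 0.31). The natriuretic clearance receptor Npr3 was higher too, at 701, 792 and 793 against 93.3, 283 and 297 CPM (1.77 ± 0.43). Klf14, a maternally expressed regulator of adipocyte metabolism, showed the same low replicate, at 3.56, 4.19 and 3.82 against 0.141, 1.66 and 1.53 CPM (1.80 ± 0.65, adjusted p = 0.0358). Its call was lost without any 1 of the NZO/HiLtJ libraries or without CAST/EiJ replicate 3 or C57BL/6J replicate 1, with adjusted p-values of 0.0502 to 0.0744. With the 6 libraries of the comparison alone its adjusted p was 0.0693.

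Enzymes of fatty acid synthesis and desaturation leaned to CAST/EiJ, with 1 of 18 higher and 9 lower in NZO/HiLtJ and a median of -1.11. Scd1, the desaturase that makes monounsaturated fatty acids, was among the most abundant transcripts, at 5626, 8333 and 7219 against 22405, 12261 and 16507 CPM (-1.26 ± 0.24, adjusted p = 0.00117). The libraries did not overlap. Acacb, the acetyl-CoA carboxylase that makes the malonyl-CoA controlling mitochondrial fatty acid entry, stood at 80.3, 216 and 113 against 1485, 697 and 1000 CPM, 7.73-fold higher in CAST/EiJ (-2.95 ± 0.41, adjusted p = 0.000118). Malic enzyme Me1 (-1.87 ± 0.42), the lipogenic regulator Thrsp (-2.18 ± 0.48), the mitochondrial citrate carrier Slc25a1 (-1.42 ± 0.31), the delta-5 desaturase Fads1 (-1.62 ± 0.14) and the transcription factor Mlxipl (-1.14 ± 0.27) were also higher in CAST/EiJ.

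The core synthetic enzymes did not separate in the same way. Fatty acid synthase (Fasn) was at 2078, 4571 and 3142 against 7971, 3599 and 5671 CPM, with overlapping libraries and no call (-0.81 ± 0.45, adjusted p = 0.149). ATP citrate lyase (Acly) was at 1658, 3833 and 2361 against 2054, 587 and 1188 CPM (1.04 ± 0.59, adjusted p = 0.151) and was not called. Acetyl-CoA carboxylase Acaca (-1.06 ± 0.44, adjusted p = 0.0608) and the lipogenic transcription factor Srebf1 (-0.23 ± 0.24, adjusted p = 0.422) were not called either. Within CAST/EiJ, replicate 1 was the highest and replicate 2 the lowest for Fasn, Acly, Acaca, Me1, Thrsp and Scd1, and within NZO/HiLtJ replicate 2 was the highest for each of these 6 genes. Elovl1, an elongase of very long chains, was the 1 member higher in NZO/HiLtJ, at 80, 94.1 and 82.7 against 46.9, 41.7 and 41.3 CPM (0.99 ± 0.07). Scd4 was at 0.324, 0.397 and 0.263 against 105, 57.3 and 74.2 CPM (-7.89 ± 0.31). Scd4 and Scd1 belong to a family of similar sequence, and how reads were shared between them is uncertain.

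Among fatty acid uptake genes, the transporter Slc27a1 was at 88.4, 97.6 and 85.8 against 1212, 858 and 963 CPM, 11.1-fold higher in CAST/EiJ (-3.47 ± 0.17, adjusted p = 5.39e-08). The acyl-CoA synthetase Acsl1 followed at 2087, 2362 and 2018 against 6886, 5262 and 5932 CPM (-1.47 ± 0.16). The lipoprotein receptor Vldlr was higher in NZO/HiLtJ, at 291, 268 and 269 against 76.5, 88.4 and 93.3 CPM (1.69 ± 0.14, adjusted p = 2.22e-06). Cd36, the main scavenger receptor for fatty acids, was at 7599, 7150 and 7515 against 7007, 7168 and 8132 CPM, with overlapping libraries (0.01 ± 0.12, adjusted p = 0.966). Lipoprotein lipase (Lpl) was not called (-0.31 ± 0.20, adjusted p = 0.214). In all, 3 of 13 uptake genes were higher, 3 lower and 7 not called.

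Triglyceride assembly had 1 of 11 genes higher and 5 lower in NZO/HiLtJ. The glyceroneogenic enzyme Pck1 was at 1132, 1613 and 1454 against 4643, 4119 and 4258 CPM (-1.62 ± 0.36, adjusted p = 0.0029). Dgat1, which adds the last acyl chain, was at 156, 176 and 183 against 583, 428 and 513 CPM (-1.56 ± 0.13, adjusted p = 3.51e-06). The phosphatidate phosphatase Lpin1 (-1.42 ± 0.17), Gpam (-1.10 ± 0.25) and Agpat2 (-0.93 ± 0.18) went the same way, while the glycerol channel Aqp7 was higher in NZO/HiLtJ (1.19 ± 0.16) and Dgat2 was not called (-0.24 ± 0.32, adjusted p = 0.55).

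On the side of lipolysis and the lipid droplet, 3 of 16 genes were higher and 8 lower in NZO/HiLtJ. The triglyceride lipase Pnpla2 lay at 4014, 4547 and 4244 against 9896, 7375 and 8389 CPM (-0.99 ± 0.16, adjusted p = 0.000291). Hormone-sensitive lipase Lipe (-0.63 ± 0.14) and the antilipolytic phosphodiesterase Pde3b (-1.54 ± 0.14) were likewise higher in CAST/EiJ. G0s2 and Hilpda, both inhibitors of the lipase Pnpla2, were higher in NZO/HiLtJ. G0s2 was at 108, 137 and 107 against 74.8, 44.1 and 43.7 CPM (1.12 ± 0.21). Hilpda was at 7.91, 7.62 and 8.27 against 2.54, 1.96 and 2.43 CPM (1.79 ± 0.14). The droplet proteins perilipin 1 (Plin1, -0.26 ± 0.12, adjusted p = 0.0972) and Cidec (0.27 ± 0.14, adjusted p = 0.12) were not called.

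Thermogenic genes were higher in CAST/EiJ for 9 of the 15 brown and beige members measured, 7 of them by the strict call, and higher in NZO/HiLtJ for 2. Ucp1, the uncoupling protein, was at 6.41, 15.9 and 4.95 against 79.8, 96.7 and 103 CPM, with no overlap (-3.35 ± 0.61, 10.2-fold, adjusted p = 0.000766). The C57BL/6J mean was 1.11 ± 1.16 CPM and the WSB/EiJ mean 29.8 ± 5.93 CPM (SD, n = 3 each). Elovl3, an elongase induced with thermogenesis, was at 0.0811, 0.144 and 0.0657 against 16.5, 10 and 11.8 CPM (-6.99 ± 0.48, adjusted p = 7.69e-07). Dio2, which makes active thyroid hormone in brown fat, was at 0.798, 0.625 and 0.407 against 17.4, 9.37 and 10.1 CPM (-4.32 ± 0.67, adjusted p = 0.000266). Cidea (-2.17 ± 0.30), Cox7a1 (-1.86 ± 0.19), Cox8b (-1.56 ± 0.26), Ppara (-1.60 ± 0.21) and Ppargc1a (-0.82 ± 0.22) were also lower in NZO/HiLtJ. Their calls held without CAST/EiJ replicate 2, the library with skeletal muscle transcripts. The part of those transcripts in the size of the differences was not tested.

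Prdm16, the transcriptional regulator of the brown and beige programme, ran against its list at 41.7, 50.9 and 32.9 against 9.28, 14.2 and 15 CPM, higher in NZO/HiLtJ (1.71 ± 0.20, adjusted p = 3.38e-05). Ebf2, another factor of that programme, was higher as well (0.56 ± 0.15). Adrb3, the adrenergic receptor that drives lipolysis and heat production in mouse fat, was at 124, 223 and 279 against 604, 503 and 553 CPM, lower in NZO/HiLtJ (-1.40 ± 0.25, adjusted p = 0.000644). The antilipolytic receptor Adra2a was lower too, at 0.365, 0.361 and 0.525 against 2.56, 3.34 and 3.33 CPM (-2.87 ± 0.35). Of the 9 adrenergic and natriuretic genes, 3 were higher and 4 lower in NZO/HiLtJ.

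Respiratory chain subunits showed small differences, nearly all in 1 direction. Of 49 oxidative phosphorylation genes, 44 were lower and 1 higher in NZO/HiLtJ, with a median of -0.55, and none passed the strict call. The lower calls persisted in all 6 fits without 1 library for 35 of them. The Rieske protein of complex III, Uqcrfs1, had the largest difference at 64.8, 68 and 68 against 147, 108 and 132 CPM (-0.94 ± 0.12, adjusted p = 5.65e-05). Sdha, the catalytic subunit of complex II, was at 267, 301 and 290 against 598, 446 and 535 CPM (-0.87 ± 0.10). The complex V subunit Atp5b was at 1707, 1774 and 1756 against 3001, 2374 and 2775 CPM (-0.63 ± 0.09). Ndufb3 of complex I was the exception, higher in NZO/HiLtJ at 51, 47 and 47.2 against 33.1, 26.9 and 30.6 CPM (0.69 ± 0.12, adjusted p = 0.000447). CAST/EiJ replicate 1 was the highest library for Uqcrfs1, Sdha and Atp5b.

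Fatty acid oxidation had 17 of 23 genes lower and 3 higher in NZO/HiLtJ (median -0.59). The peroxisomal bifunctional enzyme Ehhadh was at 22.8, 27.9 and 22 against 115, 71.2 and 92.2 CPM (-1.93 ± 0.22, adjusted p = 2.44e-05). The long-chain dehydrogenase Acadl was at 97.7, 94.6 and 99.2 against 316, 219 and 241 CPM (-1.40 ± 0.12). The carnitine carrier Slc25a20 was at 24.7, 24.4 and 25.3 against 73.5, 54.1 and 62.6 CPM (-1.34 ± 0.10). The very-long-chain dehydrogenase Acadvl ran the other way, at 273, 291 and 283 against 84.3, 67.5 and 75.3 CPM, 3.76-fold higher in NZO/HiLtJ (1.91 ± 0.08, adjusted p = 2.24e-08). Cpt1a, the gatekeeper of mitochondrial import, was higher in NZO/HiLtJ (0.50 ± 0.13, adjusted p = 0.0079) and the muscle-type isoform Cpt1b lower (-1.06 ± 0.23).

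Breakdown of branched-chain amino acids had 15 of 22 genes lower and 0 higher in NZO/HiLtJ, with a median of -0.51 and no strict call. The first step, Bcat2, was at 334, 265 and 356 against 1209, 571 and 781 CPM (-1.41 ± 0.24, adjusted p = 0.000431). Aldh6a1 (-1.28 ± 0.14), Pcca (-1.14 ± 0.13) and Bckdhb (-1.08 ± 0.11) of later steps were lower too. Summed adipocyte markers were higher in CAST/EiJ, at 20128 to 21973 CPM against 16192 to 16529 CPM in NZO/HiLtJ. Of the 9 markers 5 were lower and 1 higher in NZO/HiLtJ, with none at 0. Adipsin (Cfd), 1 of the 9, was 6.77-fold higher in CAST/EiJ and carried most of the gap between the sums. The part of the adipocyte markers in the mitochondrial, lipid and thermogenic results was not tested.

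Insulin signalling and glucose uptake had 3 of 20 genes higher and 11 lower in NZO/HiLtJ (median -0.45). The insulin receptor substrate Irs1 was at 24.1, 31.3 and 29.3 against 69.9, 63.5 and 73 CPM (-1.27 ± 0.17, adjusted p = 8.29e-05). Irs2, its relative, was at 5.65, 11.4 and 9.42 against 17.1, 19.6 and 25.2 CPM (-1.22 ± 0.24). Grb14, an adaptor that inhibits the insulin receptor, was at 21.7, 18.7 and 23 against 1.91, 3.54 and 2.43 CPM, 8.11-fold higher in NZO/HiLtJ (3.02 ± 0.24, adjusted p = 1.94e-06). A related adaptor, Grb10, was lower (-1.05 ± 0.11). The insulin-responsive glucose transporter Slc2a4 was at 103, 131 and 132 against 105, 82.7 and 96.4 CPM and was not called (0.37 ± 0.17, adjusted p = 0.0848), nor was the receptor Insr (-0.14 ± 0.11, adjusted p = 0.305).

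Receptors and growth factors leaned to CAST/EiJ, with 11 of 20 lower and 1 higher in NZO/HiLtJ. Oestrogen receptor alpha (Esr1) was at 36.2, 48.1 and 35.6 against 172, 160 and 194 CPM (-2.12 ± 0.12, adjusted p = 1.83e-07). The glucocorticoid receptor Nr3c1 (-0.67 ± 0.10) and the thyroid hormone receptor Thrb (-0.70 ± 0.07) were lower as well. Thra, the other thyroid hormone receptor, was the 1 higher gene, at 125, 137 and 144 against 35.6, 42.9 and 45.8 CPM (1.71 ± 0.11, adjusted p = 5.24e-07). Its C57BL/6J and WSB/EiJ means were 142 ± 13.5 and 128 ± 11.3 CPM (SD, n = 3 each), close to NZO/HiLtJ. The leptin receptor Lepr, the partner of the hormone that was higher in NZO/HiLtJ, was lower there at 4.03, 4.19 and 4.66 against 13.8, 13.9 and 15.7 CPM (-1.74 ± 0.20, adjusted p = 3.33e-05).

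Sulfide-oxidising and sulfur amino acid enzymes showed 6 of 11 lower and 1 higher in NZO/HiLtJ, with a median of -0.32. Thiosulfate sulfurtransferase (Tst), a mitochondrial enzyme of sulfide disposal, was at 12.6, 13.4 and 12 against 109, 43.5 and 47.7 CPM, without overlap (-2.39 ± 0.39, 5.24-fold, adjusted p = 0.000345). CAST/EiJ replicate 1 held more than the other CAST/EiJ libraries. The persulfide dioxygenase Ethe1 (-0.92 ± 0.15), cysteine dioxygenase Cdo1 (-0.79 ± 0.11), Suox (-0.60 ± 0.12), Mpst (-0.42 ± 0.12) and Sqor (-0.32 ± 0.08) were lower too, and Cth, which makes cysteine, was higher (1.04 ± 0.16, adjusted p = 0.000293). The other 4 were not called.

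Glutathione transferases and antioxidant enzymes had 19 of 34 lower and 5 higher in NZO/HiLtJ, 10 of the lower ones by the strict call. Gstm6 was at 1.39, 1.08 and 0.486 against 17, 16.7 and 17.1 CPM (-4.09 ± 0.31, adjusted p = 1.47e-06). Catalase (Cat), which breaks down hydrogen peroxide, was at 491, 515 and 514 against 1335, 1120 and 1075 CPM (-1.21 ± 0.10). The microsomal transferase Mgst1 was at 1190, 1372 and 1259 against 4253, 2697 and 2997 CPM (-1.37 ± 0.17). Nnt, the mitochondrial transhydrogenase, was lower in NZO/HiLtJ at 46.9, 58.9 and 47.8 against 132, 191 and 160 CPM (-1.64 ± 0.14, adjusted p = 3.66e-06). C57BL/6J, a strain known to carry a deletion in this gene, had a mean of 59.6 ± 4.66 CPM. Extracellular superoxide dismutase Sod3 (1.29 ± 0.18) and Gpx1 (0.96 ± 0.14) were higher. Gstm genes are close copies of each other, and how reads were shared among them is uncertain. Cyp2e1, a cytochrome P450 also abundant in liver, was at 295, 352 and 402 against 6128, 3733 and 4508 CPM (-3.76 ± 0.30, adjusted p = 2.16e-06).

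**Figure D3:**
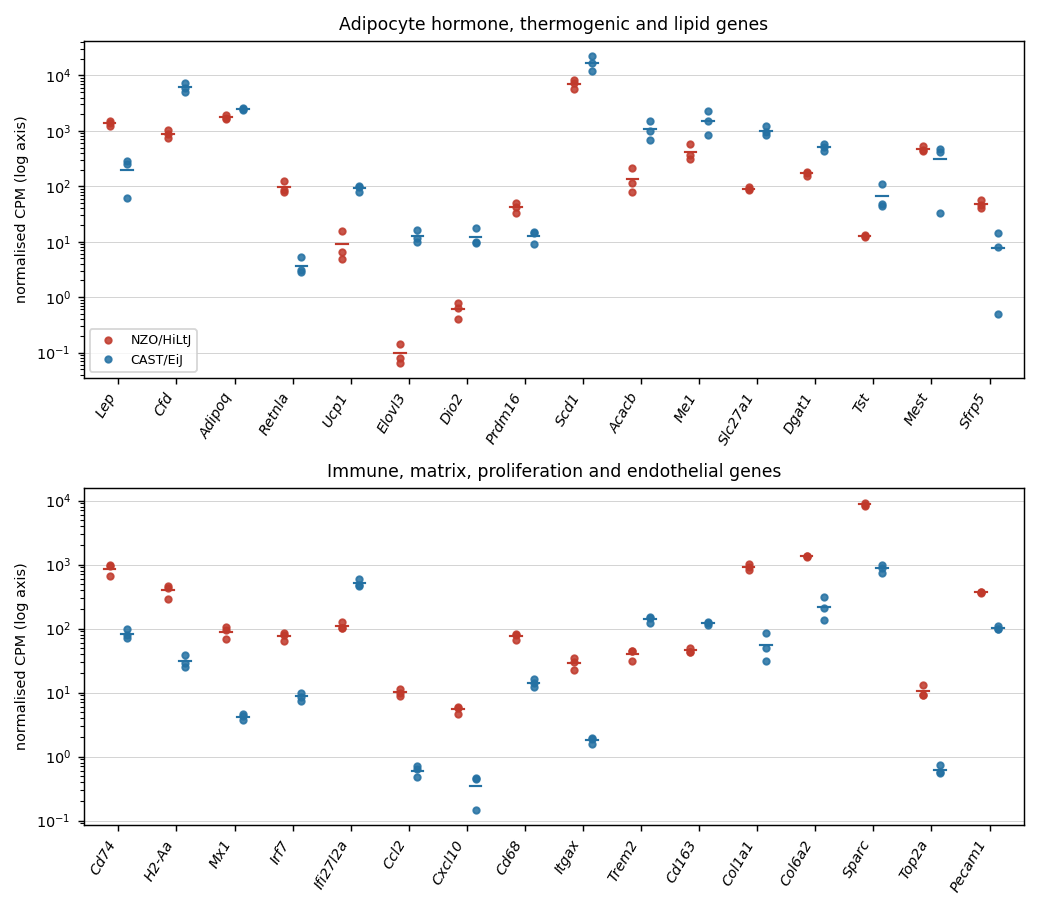
Normalised CPM (log axis) of 32 genes in the 3 NZO/HiLtJ (red) and 3 CAST/EiJ (blue) standard-diet libraries, with group means as short lines. Lep is high in NZO/HiLtJ while Cfd, Ucp1, Elovl3 and Slc27a1 are high in CAST/EiJ; in the lower panel Trem2, Cd163 and Ifi27l2a are higher in CAST/EiJ and the other 13 genes are higher in NZO/HiLtJ.

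Macrophages are the main immune cells of fat. Summed macrophage markers lay at 1201 to 1759 CPM in NZO/HiLtJ and at 697 to 937 CPM in CAST/EiJ, and 13 of 17 macrophage markers were higher and 2 lower in NZO/HiLtJ. Cd68, a lysosomal macrophage protein, was at 80, 66.1 and 82.7 against 12.1, 16.1 and 14 CPM (2.45 ± 0.12, adjusted p = 6.35e-08). Adgre1, which encodes F4/80, was at 107, 66.6 and 89.1 against 21.7, 27.8 and 23.4 CPM (1.86 ± 0.18). The growth factor receptor Csf1r, another of these markers, was at 374, 253 and 321 against 218, 269 and 253 CPM, with overlapping libraries, and was not called (0.37 ± 0.15, adjusted p = 0.0524). The scavenger receptor Cd163, typical of resident macrophages, was higher in CAST/EiJ at 49.8, 43.4 and 43.3 against 114, 125 and 122 CPM (-1.39 ± 0.08, adjusted p = 1.98e-07), as was the efferocytosis receptor Mertk (-0.82 ± 0.12).

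Lipid-associated macrophages gather around dying adipocytes, and 9 of their 13 list genes were higher and 1 lower in NZO/HiLtJ (median 1.58). The elastase Mmp12 was at 97.8, 55.9 and 83.2 against 1.13, 1.59 and 1.65 CPM (5.77 ± 0.58, adjusted p = 1.08e-05). Itgax, which encodes the integrin CD11c, was at 34.3, 22.2 and 30 against 1.91, 1.93 and 1.58 CPM (4.01 ± 0.33). The glycoprotein Gpnmb was at 38.1, 23.1 and 46.7 against 12.4, 13.7 and 10.3 CPM (1.58 ± 0.24). Trem2, the lipid receptor that gives these cells their programme, was the 1 lower gene, at 44.8, 31.1 and 44.8 against 122, 154 and 148 CPM (-1.80 ± 0.27, adjusted p = 0.000184). Its C57BL/6J and WSB/EiJ means, 19.8 ± 7.64 and 10.4 ± 1.7 CPM (SD, n = 3 each), lay below both groups. Apolipoprotein E (Apoe), which adipocytes also make, was the most abundant of the genes called at least 1 log2 higher in NZO/HiLtJ, at 9281, 7907 and 9652 against 2115, 2262 and 2182 CPM (2.04 ± 0.18).

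Chemokines, cytokines and their receptors had 21 of 26 higher and 1 lower in NZO/HiLtJ, 18 by the strict call, with a median of 2.49. The monocyte attractant Ccl2 was at 11.5, 10 and 8.85 against 0.476, 0.631 and 0.701 CPM (4.07 ± 0.40, adjusted p = 1.03e-05). Its receptor Ccr2 was at 96.2, 62.9 and 72.7 against 12.9, 21.7 and 13.6 CPM (2.27 ± 0.25). The related ligand Ccl8 was at 26.2, 12 and 27.9 against 0.247, 0.365 and 0.179 CPM (6.38 ± 0.41). Tumour necrosis factor (Tnf) was low in both strains, at 1.84, 1.26 and 2.02 against 0.106, 0.0664 and 0.163 CPM (3.92 ± 0.49, adjusted p = 5.63e-05). The T cell attractant Cxcl10 was at 4.61, 5.96 and 5.75 against 0.459, 0.448 and 0.147 CPM (3.96 ± 0.47). Ccl4 had 0 counts in all 3 CAST/EiJ libraries and 0.554, 0.361 and 0.381 CPM in NZO/HiLtJ. Il33, an alarmin made by stromal cells, was the 1 gene higher in CAST/EiJ, at 10, 13.2 and 7.66 against 20.5, 23.5 and 28.1 CPM (-1.21 ± 0.19, adjusted p = 0.000273). For Ccl2, Ccr2, Ccl8, Tnf, Cxcl10 and Ccl4 the strains did not overlap. Macrophage marker sums were higher in NZO/HiLtJ, as given above, and their part in the levels of these immune genes was not tested.

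MHC class II molecules present antigen on macrophages, dendritic cells and B cells, and all 10 genes measured were higher in NZO/HiLtJ, 9 by the strict call. The invariant chain Cd74 was at 975, 666 and 936 against 71.1, 98.7 and 79.2 CPM (3.38 ± 0.21, 10.4-fold, adjusted p = 3.25e-07). Ciita, the master regulator of the class, was at 22.2, 15.9 and 25 against 1.87, 3.12 and 1.94 CPM (3.19 ± 0.27, adjusted p = 2.79e-06). The antigen-presenting chain H2-Aa was at 467, 290 and 425 against 24.8, 38.4 and 29.3 CPM (3.68 ± 0.25) and H2-Eb1 differed by 3.38 ± 0.26. The class I set, which displays peptides from within a cell, had 16 of 18 genes higher and 1 lower (median 1.08). H2-K1, a presenting chain, was at 2227, 2049 and 2466 against 630, 848 and 825 CPM (1.56 ± 0.15). The peptide transporter Tap1 was at 112, 94.6 and 154 against 28.8, 39.8 and 42.1 CPM (1.72 ± 0.21). Nlrc5, the activator of class I genes, was at 43.5, 40 and 50.2 against 12.9, 15.4 and 13.1 CPM (1.70 ± 0.13), and the shared light chain B2m differed by 0.99 ± 0.13. H2 genes are polymorphic between strains and have close copies, so their counts are uncertain; Cd74, Ciita, Tap1 and Nlrc5 are outside the polymorphic H2 chains.

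The interferon response is a set of antiviral genes that interferon receptors switch on through transcription factors that bind a repeated GAAA element. Promoter sequences of 4 members that were higher in NZO/HiLtJ are shown because this element was found in them; they were chosen after their values were seen. They are the 250 bases before the RefSeq start on GRCm38.p6, 5′ to 3′ on the gene's strand, with matches to GAAA, any 2 bases and GAAA, or to the reverse complement (TTTC, any 2 bases and TTTC), in capitals, including matches that overlap.
Isg15: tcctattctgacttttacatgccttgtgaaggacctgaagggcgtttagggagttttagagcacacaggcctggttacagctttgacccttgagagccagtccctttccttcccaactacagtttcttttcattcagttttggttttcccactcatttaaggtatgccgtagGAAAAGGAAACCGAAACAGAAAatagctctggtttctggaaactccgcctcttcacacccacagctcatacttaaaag
Ifit1: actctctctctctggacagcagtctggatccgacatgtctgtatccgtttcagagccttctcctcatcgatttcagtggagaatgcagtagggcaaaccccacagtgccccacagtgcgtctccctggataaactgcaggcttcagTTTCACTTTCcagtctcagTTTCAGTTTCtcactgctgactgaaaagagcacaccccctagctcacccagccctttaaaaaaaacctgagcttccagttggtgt
Ifit3: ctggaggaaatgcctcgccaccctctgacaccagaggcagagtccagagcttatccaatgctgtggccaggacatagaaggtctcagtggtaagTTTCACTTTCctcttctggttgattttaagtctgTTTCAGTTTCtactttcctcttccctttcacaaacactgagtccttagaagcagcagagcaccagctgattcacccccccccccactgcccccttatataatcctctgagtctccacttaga
Rsad2: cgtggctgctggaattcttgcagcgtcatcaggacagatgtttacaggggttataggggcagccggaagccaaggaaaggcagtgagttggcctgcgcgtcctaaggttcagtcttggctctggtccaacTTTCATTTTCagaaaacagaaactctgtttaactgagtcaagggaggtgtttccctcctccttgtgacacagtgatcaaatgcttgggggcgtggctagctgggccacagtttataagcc
The windows are chr4:156200819-156201068 (minus strand) for Isg15, chr19:34640639-34640888 (plus strand) for Ifit1, chr19:34583279-34583528 (plus strand) for Ifit3 and chr12:26456453-26456702 (minus strand) for Rsad2. Of the 27 interferon genes, 18 had a promoter in the table and 11 held the motif in at least 1 of their promoters, against 2.98% of all 32851 promoters. Among these 11 genes, 9 were higher and 1 lower in NZO/HiLtJ. A match describes the letters of the reference, not a bound site.

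Of the 27 interferon genes 19 were higher in NZO/HiLtJ, 15 by the strict call, and 4 were lower, 2 by the strict call (median 1.52). Isg15, a ubiquitin-like modifier, was at 4.07, 2.68 and 4.37 against 0.424, 0.465 and 0.522 CPM (2.98 ± 0.22, adjusted p = 1.2e-06). Ifit1, which binds viral RNA, was at 4.79, 3.7 and 6.03 against 0.406, 0.847 and 0.522 CPM (3.03 ± 0.30). Rsad2, the antiviral protein viperin, was at 17.3, 13.5 and 24.8 against 1.36, 1.54 and 1.01 CPM (3.84 ± 0.34), and Ifit3 differed by 1.52 ± 0.21. Irf7, the factor that amplifies the response, was at 79.1, 63.2 and 86.6 against 7.48, 10 and 8.58 CPM, 8.82-fold higher in NZO/HiLtJ (3.14 ± 0.19, adjusted p = 3.13e-07). The antiviral GTPase Mx1 was at 106, 67.6 and 95.2 against 4.29, 4.65 and 3.74 CPM (4.42 ± 0.31). Its C57BL/6J and WSB/EiJ means were 5.39 ± 1.7 and 4.7 ± 1.49 CPM, close to CAST/EiJ. The related GTPase Mx2 was lower in NZO/HiLtJ, at 0.946, 0.817 and 0.722 against 2.36, 2.72 and 2.9 CPM (-1.67 ± 0.22, adjusted p = 9.03e-05). Ifi27l2a, another interferon-induced gene, was lower too, at 128, 103 and 103 against 592, 464 and 487 CPM (-2.20 ± 0.16, adjusted p = 1.23e-06).

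Lymphocyte transcripts were low in both strains and higher in NZO/HiLtJ, for 6 of 8 B cell markers and 9 of 12 T and NK cell markers, with none lower. B cell markers summed to 34.0, 8.39 and 14.1 CPM in NZO/HiLtJ and to 1.70, 1.30 and 1.75 CPM in CAST/EiJ. Cd79b, of the B cell receptor, was at 10.2, 2.73 and 4.35 against 0.388, 0.282 and 0.0979 CPM (4.50 ± 0.63, adjusted p = 0.000129), with NZO/HiLtJ replicate 1 the highest. That library was also the highest of the 3 in plasma cell markers (510, 215 and 264 CPM), granulocyte and mast cell markers (36.7, 9.96 and 23 CPM) and erythroid markers (999, 72.1 and 113 CPM, against 593, 289 and 230 CPM in CAST/EiJ). Without it Cd79b, Gzma and Ighm were still called higher in NZO/HiLtJ. The cytotoxic granule protease Gzma was at 6.57, 2.28 and 2.69 against 0.106, 0.083 and 0.0979 CPM (5.32 ± 0.72, adjusted p = 9.44e-05). Ighm, the heavy chain of IgM, was at 401, 206 and 222 against 6.23, 10.6 and 8.2 CPM (5.06 ± 0.55). Ighg2b, a heavy chain of IgG, was higher in CAST/EiJ, at 0.365, 0.457 and 0.171 against 14.9, 5.78 and 22.7 CPM (-5.42 ± 1.01, adjusted p = 0.000876). Immunoglobulin genes differ in sequence between strains, so that their counts are uncertain.

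Collagens were higher in NZO/HiLtJ for 13 of 17 genes, 10 by the strict call, and lower for 1 (median 1.44). Col1a1, a chain of type I collagen, was at 922, 1027 and 813 against 30.8, 86.7 and 49.7 CPM, 16.6-fold higher in NZO/HiLtJ (4.05 ± 0.33, adjusted p = 2.65e-06). Its partner chain Col1a2 was at 559, 602 and 518 against 307, 670 and 377 CPM and was not called (0.32 ± 0.27, adjusted p = 0.339). Type III collagen (Col3a1) was at 1900, 1780 and 1459 against 702, 1765 and 1071 CPM and was not called (0.54 ± 0.30, adjusted p = 0.146). CAST/EiJ replicate 2, the library with muscle transcripts, was the highest CAST/EiJ library for all 3 genes. Without that library Col1a2 (0.70, adjusted p = 0.0138) and Col3a1 (0.94, adjusted p = 0.00975) were called higher in NZO/HiLtJ. Type VI collagen is abundant around adipocytes, and its chain Col6a1 was at 1238, 1271 and 1223 against 152, 330 and 231 CPM (2.39 ± 0.25). Col6a2 was at 1347, 1342 and 1330 against 136, 314 and 213 CPM (2.61 ± 0.27). The basement membrane chains Col4a1 (1.39 ± 0.12) and Col4a2 (1.49 ± 0.15) were higher, and Col14a1 was lower (-1.15 ± 0.20, adjusted p = 0.000547).

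Other matrix genes were mixed, with 12 of 27 higher and 8 lower (median -0.07). Sparc, a collagen-binding glycoprotein, was at 8661, 9095 and 8333 against 739, 997 and 888 CPM, 9.99-fold higher in NZO/HiLtJ (3.32 ± 0.16, adjusted p = 5.97e-08). The proteoglycan biglycan (Bgn) was at 910, 1007 and 847 against 197, 311 and 251 CPM (1.87 ± 0.14). The protease inhibitor Timp4 was at 122, 146 and 111 against 20.4, 12.5 and 20.9 CPM (2.83 ± 0.31). Decorin (Dcn), a fibroblast proteoglycan, was higher in CAST/EiJ at 722, 573 and 539 against 1073, 1432 and 1165 CPM (-0.99 ± 0.14, adjusted p = 0.000133). The gelatinase Mmp2 was higher in CAST/EiJ too, at 51.4, 38.3 and 33.8 against 108, 132 and 100 CPM (-1.45 ± 0.17). Summed fibroblast and preadipocyte markers overlapped, at 1214 to 1537 CPM in NZO/HiLtJ and 1377 to 2056 CPM in CAST/EiJ.

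Endothelial markers summed to 1205 to 1270 CPM in NZO/HiLtJ and 605 to 620 CPM in CAST/EiJ, and 8 of 12 were higher in NZO/HiLtJ with none lower. Pecam1, a junction protein of endothelium, was at 365, 370 and 377 against 111, 96.9 and 97.4 CPM (1.88 ± 0.09, adjusted p = 5.39e-08). VE-cadherin (Cdh5) was at 93.2, 98.8 and 100 against 39, 32.1 and 36.5 CPM (1.45 ± 0.12). The clotting protein Vwf was not called (-0.39 ± 0.18, adjusted p = 0.09). Of 10 smooth muscle and mural cell markers 2 were higher and 8 were not called (median -0.23), and their sums overlapped, at 790 to 885 CPM in NZO/HiLtJ and 288 to 854 CPM in CAST/EiJ. The pericyte gene Rgs5, 1 of the 2 higher members, was at 250, 206 and 185 against 48, 50.6 and 56.1 CPM (2.06 ± 0.14, adjusted p = 5.4e-07).

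Cell division genes were higher in NZO/HiLtJ for 24 of 26 members and lower for 0, with 15 strict calls and a median of 1.72. Topoisomerase Top2a was at 13.3, 9.22 and 9.32 against 0.547, 0.565 and 0.75 CPM (4.10 ± 0.37, adjusted p = 5.41e-06). The proliferation antigen Mki67 was at 9.34, 8.49 and 7.27 against 1.76, 1.94 and 2.17 CPM (2.10 ± 0.22). Birc5, which acts in chromosome segregation, was at 4.08, 2.8 and 2.82 against 0.159, 0.482 and 0.326 CPM (3.32 ± 0.40). Ube2c was not called, with CAST/EiJ replicate 2 standing apart at 5.11, 4.35 and 3.36 against 0.776, 17.4 and 0.946 CPM (-0.58 ± 0.92, adjusted p = 0.613). Without that library Ube2c was called higher in NZO/HiLtJ (2.29, adjusted p = 0.000748). Summed immune and endothelial markers were higher in NZO/HiLtJ as well, and their part in this list was not tested.

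Among the 8 most abundant genes at least 1 log2 higher in NZO/HiLtJ, 3 encode actins or a tubulin. Tuba1a, an alpha tubulin, was at 2183, 2735 and 1863 against 166, 156 and 141 CPM (3.88 ± 0.19, 14.7-fold, adjusted p = 5.91e-08). Beta-actin (Actb) was at 2424, 2580 and 2450 against 1100, 1150 and 1186 CPM (1.13 ± 0.08). Gamma-actin (Actg1) was at 1572, 1689 and 1656 against 525, 533 and 556 CPM (1.62 ± 0.07). Tubulins and actins have close copies and pseudogenes, and how reads were shared among them is uncertain. The membrane-binding Anxa2 differed by 1.57 ± 0.15. On the CAST/EiJ side, the most abundant included the selenium carrier Selenop, at 1553, 1288 and 1430 against 4915, 4583 and 4371 CPM (-1.69 ± 0.14, adjusted p = 2.7e-06). Pyruvate carboxylase Pcx was at 1155, 1606 and 1343 against 4663, 2811 and 3997 CPM (-1.47 ± 0.19).

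The circadian clock is a feedback loop in which ARNTL with CLOCK or NPAS2 drives the Per, Cry, Nr1d and Dbp genes through E-boxes, and DBP, TEF and HLF act through D-boxes. The promoters of Ciart and Per3 are shown because they carry these elements and because both genes were among the most different clock genes; they were chosen with their values known. Capitals mark CACGTG (E-box, its own reverse complement) in Ciart and TTATGTAA (D-box; reverse complement TTACATAA, also searched) in Per3.
Ciart: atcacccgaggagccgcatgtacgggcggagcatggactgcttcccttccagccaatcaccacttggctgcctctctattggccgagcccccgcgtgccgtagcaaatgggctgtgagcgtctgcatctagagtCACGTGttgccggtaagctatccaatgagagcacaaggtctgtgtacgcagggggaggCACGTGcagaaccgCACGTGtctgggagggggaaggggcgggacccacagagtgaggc
Per3: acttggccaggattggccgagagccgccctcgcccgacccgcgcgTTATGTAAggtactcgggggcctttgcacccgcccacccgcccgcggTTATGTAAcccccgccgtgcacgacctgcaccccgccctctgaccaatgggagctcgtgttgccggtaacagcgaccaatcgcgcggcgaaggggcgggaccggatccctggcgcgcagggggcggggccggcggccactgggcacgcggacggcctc
These are chr3:95882229-95882478 (minus strand) for Ciart and chr4:151044666-151044915 (minus strand) for Per3, again 250 bases before the RefSeq start on GRCm38.p6, 5′ to 3′ on the gene's strand. Of the 16 clock genes with a promoter in the table, 5 held the E-box, against 6.02% of all promoters, and 1 held the D-box, against 0.819%. Of the 5 with an E-box, 3 were lower, 0 higher and the rest not called in NZO/HiLtJ.

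The activators of the loop were higher in NZO/HiLtJ. Arntl was at 15.7, 15.6 and 13 against 2.29, 1.94 and 2.14 CPM (2.80 ± 0.23, adjusted p = 2.77e-06). Npas2 was at 1.88, 2.62 and 1.76 against 0.194, 0.199 and 0.245 CPM (3.29 ± 0.35). Clock was at 111, 126 and 118 against 68.2, 51.9 and 59.3 CPM (0.99 ± 0.09). Most genes downstream of them were lower in NZO/HiLtJ. The output factor Dbp was at 49.2, 48 and 65.1 against 189, 273 and 288 CPM (-2.20 ± 0.29, adjusted p = 7.99e-05). Per3, of the period family, was at 34.6, 35.9 and 52.4 against 177, 194 and 209 CPM (-2.22 ± 0.18). Ciart, a repressor of the loop, was at 1.43, 1.27 and 1.98 against 8.95, 10.1 and 12.8 CPM (-2.75 ± 0.27). Per2, a repressor too, was at 14.4, 17 and 16.5 against 67.7, 46.8 and 55.7 CPM (-1.82 ± 0.34). Tef (-1.41 ± 0.19), Hlf (-2.11 ± 0.24) and Nr1d2 (-1.43 ± 0.14) were lower as well, and the list had 11 of 19 lower and 4 higher. Per1 and Nr1d1 were not called (0.09 ± 0.22, adjusted p = 0.744 for Per1 and 0.07 ± 0.25, adjusted p = 0.842 for Nr1d1). Arntl means of 11.7 ± 3.86 CPM in C57BL/6J and 15.2 ± 3.1 CPM in WSB/EiJ were near the NZO/HiLtJ mean of 14.7 ± 1.53 CPM, and the CAST/EiJ mean was 2.12 ± 0.176 CPM (SD, n = 3 each). The time of day of tissue collection is not given in the sources used here.

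**Figure D4:**
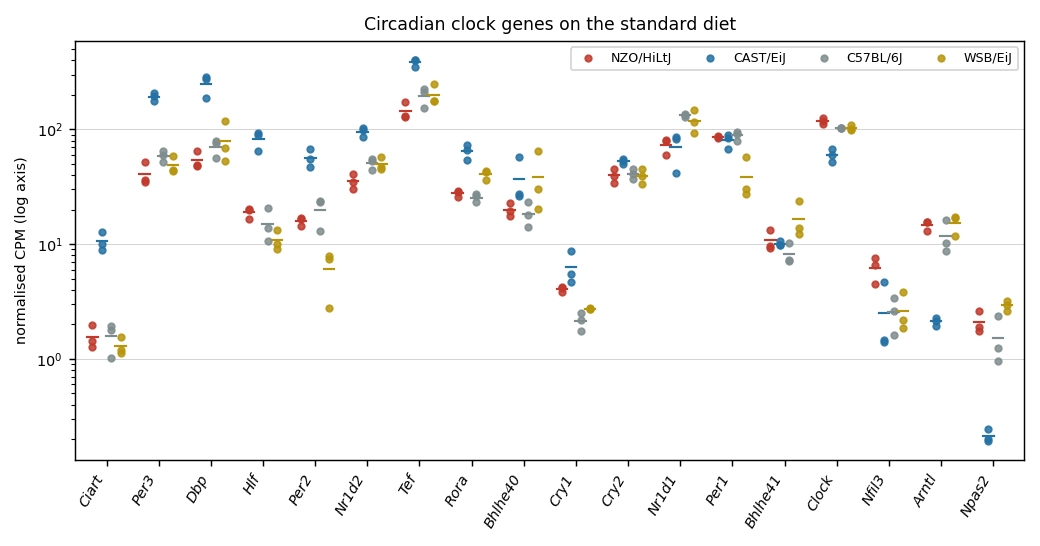
Normalised CPM (log axis) of 18 circadian clock genes, ordered by the NZO/HiLtJ minus CAST/EiJ difference, in 3 libraries of each of the 4 strains on the standard diet, with group means as short lines. All 3 CAST/EiJ libraries (blue) lie above those of the other strains for Ciart, Per3, Dbp and Hlf at the left and below them for Arntl and Npas2 at the right.

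Mesothelium lines the body cavity and the fat pads within it, and its markers were higher in CAST/EiJ for all 6 genes, each by the strict call. Their sums were 45.0 to 68.6 CPM in NZO/HiLtJ and 211 to 275 CPM in CAST/EiJ. Upk3b was at 20.2, 22.9 and 14.3 against 82.3, 99.7 and 113 CPM (-2.35 ± 0.16, adjusted p = 7.55e-07). Wt1, also a marker of intra-abdominal fat, was at 18.7, 22.4 and 15.4 against 65.9, 73.2 and 77.6 CPM (-1.93 ± 0.17). Intra-abdominal depot markers summed to 32.7 to 42.9 CPM in NZO/HiLtJ and 83.9 to 104 CPM in CAST/EiJ, and subcutaneous depot markers to 45.0 to 50.6 and 22.5 to 27.7 CPM. The positional genes of subcutaneous fat Hoxc8 (1.16 ± 0.12) and Hoxc10 (0.75 ± 0.10) were higher in NZO/HiLtJ, and Hoxa5 was lower (-0.91 ± 0.20). The part of these markers in other differences between the strains was not tested.

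Smaller groups were mixed. Cholesterol synthesis and transport had 9 of 25 higher and 5 lower, with the efflux transporter Abcg1 higher (1.27 ± 0.18, adjusted p = 0.000149) and Acat2 lower (-1.41 ± 0.20) in NZO/HiLtJ. Complement and acute phase genes had 9 of 18 higher and 3 lower: C4b was higher (1.35 ± 0.14, adjusted p = 1.3e-05), while C3 (-1.71 ± 0.21) and C6 (-2.57 ± 0.32, adjusted p = 4.94e-05) were lower. Adipogenic transcription factors had 5 of 17 in each direction, with Ebf1 higher (1.82 ± 0.16) and Cebpa lower (-0.55 ± 0.15) in NZO/HiLtJ. The master regulator Pparg was at 154, 169 and 164 against 215, 160 and 169 CPM and was not called (-0.15 ± 0.18, adjusted p = 0.499). Retinoid genes had 5 of 15 higher, among them Aldh1a7 (2.17 ± 0.23), and 6 lower, among them the retinol-esterifying enzyme Lrat (-3.49 ± 0.73).

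Stress genes were mixed too. Endoplasmic reticulum stress had 3 of 12 higher and 4 lower, with Sdf2l1 higher (1.60 ± 0.18) and Xbp1 lower (-0.94 ± 0.11). Heat shock had 1 of 12 higher and 4 lower; the near-identical pair Hspa1a (-1.67 ± 0.30) and Hspa1b (-2.00 ± 0.29) was lower in NZO/HiLtJ. Immediate early genes had 9 of 21 higher and 3 lower: Fos (2.03 ± 0.35, adjusted p = 0.000557) and Egr2 (2.65 ± 0.39) were higher, and Nr4a3 (-2.55 ± 0.40) and Nr4a2 (-1.93 ± 0.19) were lower.

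Of 7 genes proposed for obesity or diabetes in the NZO strain, 6 were measured, 2 were higher and 2 lower. Ifi202b, an interferon-inducible gene of a family with close copies, was at 28.2, 19.7 and 24.1 against 0.106, 0.0332 and 0.0163 CPM (adjusted p = 2.23e-08). The lipid transfer protein Pctp was at 2, 2.87 and 1.73 against 6.56, 3.94 and 3.87 CPM, lower in NZO/HiLtJ (-1.11 ± 0.24). The zinc finger gene Zfp69 was not called (0.26 ± 0.18, adjusted p = 0.238).

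The largest differences were nearly all-or-none, and mainly their levels are given. Where the lower strain had almost no counts, the fitted fold change depends on the small count added in the model. Fam213b, a prostamide synthase, was at 134, 100 and 107 against 0.141, 0.149 and 0.163 CPM. The interferon-inducible GTPase Iigp1 was at 108, 79.4 and 140 against 0.212, 0.149 and 0.163 CPM. The macrophage gene Ms4a7 was at 28.1, 19.6 and 27.2 against 0.0176, 0 and 0.114 CPM. These genes were present in the other strains, with means of 56.8, 34.5 and 11.4 CPM in C57BL/6J and 11.1, 26.3 and 8.47 CPM in WSB/EiJ, so that CAST/EiJ stood apart. Tph2, the neuronal form of the serotonin-making enzyme, was at 60.2, 45.1 and 44.5 against 0.176, 0.0332 and 0.13 CPM. The neuronal gene Brinp2 was at 14.6, 16 and 13.4 against 0.0353, 0.0332 and 0.0163 CPM. The choline transporter Slc5a7 was at 19.8, 12.9 and 19.7 against 0.0176, 0.0498 and 0.0163 CPM. Here the means were 0.464, 0.0448 and 1.03 CPM in C57BL/6J and 0.0379, 0.0677 and 0.0264 CPM in WSB/EiJ, so that NZO/HiLtJ stood apart.

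On the CAST/EiJ side, the sulfotransferase Chst4 was at 0, 0.012 and 0 against 6.18, 5.58 and 5.87 CPM. The nicotinic receptor subunit Chrnb4 was at 0.0541, 0.024 and 0.0131 against 10, 14.6 and 13.1 CPM. The netrin family member Ntng1 was at 0.108, 0.18 and 0 against 31.2, 17.5 and 21.7 CPM. All 3 CAST/EiJ libraries held each of these genes. The muscle genes Actn2, Mybpc1 and Tnnt3 also ranked among the 10 largest differences, but their CAST/EiJ levels rested on replicate 2. Troponin T (Tnnt3) was at 1.19, 1.95 and 2.06 against 26.3, 2358 and 4.34 CPM, and its log2 fold change moved from -8.85 to -3.15 without that library.

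At most 3 counts in every library of 1 strain and at least 1 CPM in every library of the other were found for 26 genes present in NZO/HiLtJ and 38 present in CAST/EiJ. Of these, 9 in each direction had an ordinary symbol and the others were predicted genes, clone-named genes, ribosomal protein pseudogenes or IDs without a symbol. In NZO/HiLtJ they were Slc5a7 (1462, 1075 and 1501 counts against 1, 3 and 1), Brinp2, Wfdc17, Klra7, Odf3l1, Bpifb6, Trp53cor1, Chil5 and Dct. In CAST/EiJ they were Mir692-3, Serpina3j, Chst4 (350, 336 and 360 counts against 0, 1 and 0), Cdh7, Chil3, Yipf7, Amy2b, Tspan10 and Nkx2-9. Several of these belong to families with close copies (Klra7, Chil5, Chil3, Serpina3j, Amy2b, Mir692-3), so that their counts are uncertain. The rule compared NZO/HiLtJ and CAST/EiJ only, and some of the genes were present in the other strains. Wfdc17 had standard-diet means of 4.44 CPM in C57BL/6J and 2.53 CPM in WSB/EiJ, whereas Brinp2 had 0.0448 and 0.0677 CPM. On the CAST/EiJ side Chil3 had 0.395 and 1.65 CPM, and Cdh7 had 0 and 0.0456 CPM.

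The same strain difference was read in the mice on the high-fat diet, which share no library with the comparison above. One CAST/EiJ high-fat library was left out because its adipocyte markers summed to 75.9 CPM, which left 3 NZO/HiLtJ and 2 CAST/EiJ libraries. There, 18.1% of 19924 genes were called higher and 15.8% lower in NZO/HiLtJ, 6751 in all, and 3940 were called without CAST/EiJ replicate 2, which left 1 CAST/EiJ library, assumed to vary like the other groups. Of the 5702 genes higher on the standard diet, 5678 were measured on the high-fat diet, where 94.5% had the same sign, 53.5% were called in the same direction and 8 genes were called in the opposite direction. Of the 5111 lower genes, 5083 were measured, with 94.5% of the same sign, 52.4% called likewise and 15 genes called opposite. Among strict calls the shares of the same sign were 99.3% of the higher and 98.5% of the lower genes.

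Medians of the lists kept their sign on the high-fat diet for MHC class II (3.05), chemokines and cytokines (2.93), proliferation (2.02), collagens (1.27), oxidative phosphorylation (-0.83), fatty acid oxidation (-0.97), thermogenic genes (-2.05) and the clock (-0.62). The adipokine list changed sign (0.26 on the standard and -0.52 on the high-fat diet), as did other matrix genes (-0.07 and 0.25). Fatty acid uptake (-0.02 and 0.09) and retinoid handling (0.03 and -0.1), with medians near 0 on both diets, changed sign too. None of the 4 fat mass genes was called on the high-fat diet, where their median was 1.24. Scd1 (-1.27 ± 0.37), Cfd (-4.34 ± 0.69), Mx1 (4.37 ± 0.52) and Arntl (2.96 ± 0.50) were called in the same direction, whereas Lep (1.82 ± 0.90, adjusted p = 0.155) and Ucp1 (-3.51 ± 1.31, adjusted p = 0.067) had the same sign without a call. The skeletal muscle list, which rested on 1 library on the standard diet, had a median of 0.58 on the high-fat diet.

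The difference between the diets was itself tested with an interaction term in 23 libraries, and it was called for 362 of 20385 genes (1.78%). That number fell to 148 without NZO/HiLtJ standard-diet replicate 2, 234 without replicate 3, 147 without NZO/HiLtJ high-fat replicate 2, 241 and 236 without CAST/EiJ standard-diet replicates 2 and 3, and 159 and 207 without CAST/EiJ high-fat replicates 2 and 3. The last 2 fits hold 1 CAST/EiJ high-fat library and take the spread from the other groups. Trem2 was lower in NZO/HiLtJ on the standard diet and had a log2 fold change of 0.74 ± 0.41 on the high-fat diet, a difference of 2.57 ± 0.51 (adjusted p = 0.014). Cd163 differed by -2.63 ± 0.28 (adjusted p = 0.000157), the gap in favour of CAST/EiJ being wider on the high-fat diet. Itgax (3.48 ± 0.72, adjusted p = 0.0189) and Cd68 (1.42 ± 0.25, adjusted p = 0.00729) differed upwards, their gap in favour of NZO/HiLtJ being wider. Cdo1 (-1.14 ± 0.26, adjusted p = 0.0335) and Cyp2e1 (-4.38 ± 0.67, adjusted p = 0.00249) differed downwards.

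**Figure D5:**
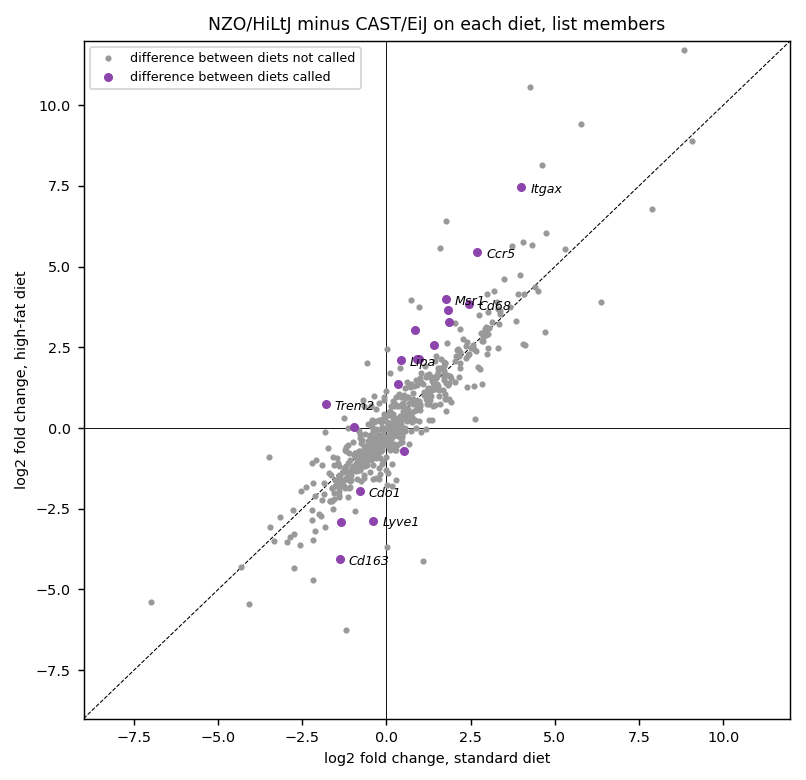
Log2 fold change NZO/HiLtJ minus CAST/EiJ on the standard diet (x axis) and on the high-fat diet (y axis) for members of the pathway lists and of the macrophage and endothelial marker lists, with a dashed line of equal values. Purple points are genes whose difference between the diets was called; Trem2 lies left of 0 on the standard diet at -1.80 and above 0 on the high-fat diet.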

How the data were processed

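Poly(A) RNA of inguinal fat was sequenced from TruSeq libraries, per the labels. The deposited table holds RSEM expected counts per Ensembl gene, whole numbers as deposited by the authors. The submitters' processing notes name CASAVA 1.8.0, Bowtie 0.12.8, RSEM 1.2.1, NCBIM37 and mm9. The effect of strain sequence differences from that reference on the counts was not tested. A second, upper-quartile normalised table was not used here. Symbols were found for 32919 of 37991 IDs (86.65%).

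Genes kept by filterByExpr were fitted with edgeR 4.0.16 (R 4.3.3) after TMM scaling over the 12 standard-diet libraries, with 1 coefficient per group, a quasi-likelihood F test and Benjamini-Hochberg adjustment at 0.05. Standard errors are the log2 fold change over the square root of F. The high-fat contrast used 11 libraries and the difference between the diets 23. DESeq2 1.42.0 and limma 3.58.1 were alternatives. The fit was tested on simulated data. Replicates are separate mice, numbered in accession order.

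The comparison, gene lists and alternatives were chosen with earlier results of these data known. The naming rule took the 10 largest and 8 most abundant differences per direction. These had to be called in all 6 fits without 1 NZO/HiLtJ or CAST/EiJ library, without overlap, at 5 CPM or more in the higher strain. Their symbols had to be ordinary, and the abundant ones had to differ by at least 1 log2. Further genes were 8 per direction present in only 1 of NZO/HiLtJ and CAST/EiJ, and 11 known in fat biology. Lists of up to 12 genes gave every member, and longer lists the 4 with the smallest adjusted p per direction. The rule gave 166 of the 229 genes named, with low ranks left out, and the other 63 were chosen after their values were seen. Klra7, which met only the part on presence in 1 strain, is counted among the 63. Some list members are not reported here by name.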

Additional observations from a re-analysis of the deposited data

Results flagged for a closer look

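Of the genes named in the text, 10 had a strain difference that changed with the diet, by the interaction term of edgeR's quasi-likelihood test with Benjamini-Hochberg adjustment over 20385 genes. Each value is the log2 fold change of NZO/HiLtJ over CAST/EiJ on the high-fat diet minus that on the standard diet. Over all genes 1.78% were called. Macrophage genes made up 5 of the 10, but some named genes were chosen after their values were seen. The count therefore does not show that macrophage genes changed more often than others. Trem2 changed by 2.57 ± 0.51 (adjusted p = 0.014), Itgax by 3.48 ± 0.72 (adjusted p = 0.0189), Adgre1 by 1.45 ± 0.30 (adjusted p = 0.0191) and Cd68 by 1.42 ± 0.25 (adjusted p = 0.00729). Cd163, the marker of resident macrophages, changed in the other direction, by -2.63 ± 0.28 (adjusted p = 0.000157).

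The secreted factor Metrnl changed by 1.21 ± 0.24 (adjusted p = 0.0142). Cdo1, which oxidises cysteine, changed by -1.14 ± 0.26 (adjusted p = 0.0335), and the cytochrome Cyp2e1 by -4.38 ± 0.67 (adjusted p = 0.00249). The interferon-inducible GTPase Iigp1, nearly absent from CAST/EiJ on the standard diet, changed by -2.06 ± 0.51 (adjusted p = 0.0461). Yipf7, which had at most 3 counts in the NZO/HiLtJ standard-diet libraries, changed by 4.40 ± 1.01 (adjusted p = 0.0385). The fitted values of Yipf7 depend on the small count added in the model, and those of Iigp1 rest on low CAST/EiJ standard-diet levels.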

How the results depend on the processing

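Of the 207 named genes that were called, none changed sign under 22 alternative settings. Leaving out 1 of the 12 standard-diet libraries ended 7 of 2484 gene calls, all of them for Sfrp5 or Klf14. Part of the naming rule required a call in the 6 fits without 1 NZO/HiLtJ or CAST/EiJ library, so this stability was partly set in advance. Over all genes, 4510 of the 5702 higher calls and 3976 of the 5111 lower calls held in all 6 fits. For 141 genes the call held in every setting but glmTreat, 63 did not pass glmTreat, and 63 were not called with all 24 libraries. On the standard diet 10813 genes were called, against 2809 by glmTreat and 7042 with all 24 libraries. On the high-fat diet 6751 genes were called, against 4421 with CAST/EiJ replicate 1 and 3940 to 5075 with 1 further library left out. The difference between the diets was called for 362 genes, against 135 with that replicate, 905 with the 2 strains alone and 147 to 308 with 1 further library left out. Genes present in NZO/HiLtJ and at or below the floor in CAST/EiJ numbered 5 at a floor of 0 counts and 65 at a floor of 10 counts. For the reverse the numbers were 8 and 74.

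For genes without a call, 14 values, each of 1 gene under 1 setting, changed sign. Cd36 was at -0.01 with DESeq2 size factors, the DESeq2 Wald test and all 24 libraries, at -0.02 without CAST/EiJ high-fat replicate 1, and between -0.04 and 0.07 with 1 library left out. With 1 library left out Nr1d1 ranged from -0.20 to 0.23, Per1 from -0.04 to 0.17 and Ube2c from -1.11 to 2.29, the last 0.84 with limma-voom. Apart from Ube2c, where 1 library decides the value, the cause was not tested. Another 18 values of genes without a call gained a call with the same sign. They were values of Acaca, Alb, Cidec, Col1a2, Col3a1, Csf1r, Plin1, Slc2a4 and Vwf. With the 6 libraries of the comparison alone, the quasi-likelihood test called Vwf (-0.39, adjusted p = 0.00155) and Plin1 (-0.26, adjusted p = 0.0332) lower in NZO/HiLtJ. In that fit Slc2a4 was called higher (0.37, adjusted p = 0.0397). No paired analysis was made because the libraries come from separate mice of different strains and replicate numbers follow accession order.

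With 3 mice per group, a missing call does not show that a gene was level. Genes with few counts, such as the lymphocyte markers, have the least precise values.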
